A study of Mus musculus with 203 samples.

Results

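Airway ion transport genes are described here across the airway and the parenchyma of the mouse lung after house dust mite (HDM) extract, cigarette smoke (CS) and dexamethasone (DEX). The 9 genes were chosen by name and not by a rule on measured values, but earlier results of these data were known. These genes were found in the gene count table by Ensembl identifier. They are 9 of the 43346 identifiers in that table. Of these, 8 had enough reads to be tested (Cftr, Ano1, Slc26a4, Slc26a9, Slc12a2, Scnn1a, Scnn1b and Scnn1g), and Atp12a did not.

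All mice were female BALB/c, and the labels give one age range of 18 to 20 weeks for every mouse. At 3 weeks, mice had received HDM extract into the nose on 5 days per week, or PBS. At 11 weeks, 4 kinds of exposure were combined, each with and without DEX. PBS.AIR mice had PBS and normal air, HDM.AIR mice had HDM and normal air, PBS.CS mice had PBS and smoke, and HDM.CS mice had HDM and smoke. Smoke was given for 8 weeks and DEX during week 11. HDM after the first 3 weeks was given 3 times per week from week 4 to week 11. Airway and parenchyma were separated by dissection, and each of the 20 groups holds 10 to 12 libraries (11 of PBS airway and 12 of PBS parenchyma at 3 weeks, 10 of every other group). No label ties the airway of a mouse to its parenchyma, so libraries were treated as independent. The dose of DEX and the time between its last dose and the collection of tissue are not given in the sources used here.

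The liquid that lines the airway is set by a balance of salt absorption and salt secretion. The epithelial sodium channel (ENaC), built from the subunits Scnn1a, Scnn1b and Scnn1g, lets sodium into the cell, and water follows. Cftr, the cystic fibrosis anion channel, and Ano1, a calcium-activated chloride channel, let chloride and bicarbonate out. Slc12a2 loads chloride into the cell across its basal side. Slc26a4 (pendrin) exchanges chloride for bicarbonate and other anions, Slc26a9 conducts or exchanges chloride, and Atp12a, a proton pump, acidifies the liquid. Mice overexpressing Scnn1b in the airway are a known model of dehydrated airway mucus, and Slc26a4 is known to be induced in airway epithelium by type 2 and type 17 cytokines.

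Coordinates are of GRCm38 (mm10), and GENCODE M21 gives all 9 genes as protein coding. Cftr spans chr6:18170687-18322768 on the plus strand, and Scnn1a chr6:125320659-125344943, also plus. Scnn1g (chr7:121734479-121768475) and Scnn1b (chr7:121865038-121918514) are neighbours on the plus strand, 96.6 kb apart. Ano1 spans chr7:144588549-144751974 and Slc26a4 chr12:31519827-31559969, both on the minus strand. Slc26a9 spans chr1:131744022-131771504 and Atp12a chr14:56365068-56388550, both plus. An antisense gene overlaps exons of Cftr (Gm15592) and of Atp12a (Gm10873). Whether reads were assigned by strand is not stated, so reads of these pairs cannot be told apart.

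The sequences around 3 transcription starts are shown because Slc26a4 had the widest range of levels, and because Scnn1b and Scnn1g are neighbours whose levels moved together. Each runs 5′ to 3′ on the strand of the gene, from 250 bases before the RefSeq start to 50 after it (GRCm38.p6).
Slc26a4, chr12:31559935-31560234, minus strand: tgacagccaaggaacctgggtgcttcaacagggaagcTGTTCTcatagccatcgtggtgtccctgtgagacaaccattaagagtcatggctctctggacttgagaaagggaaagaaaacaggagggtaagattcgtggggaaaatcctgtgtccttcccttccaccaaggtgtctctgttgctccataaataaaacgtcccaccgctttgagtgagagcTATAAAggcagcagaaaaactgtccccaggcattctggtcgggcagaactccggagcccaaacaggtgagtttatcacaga
Scnn1g, chr7:121734229-121734528, plus strand: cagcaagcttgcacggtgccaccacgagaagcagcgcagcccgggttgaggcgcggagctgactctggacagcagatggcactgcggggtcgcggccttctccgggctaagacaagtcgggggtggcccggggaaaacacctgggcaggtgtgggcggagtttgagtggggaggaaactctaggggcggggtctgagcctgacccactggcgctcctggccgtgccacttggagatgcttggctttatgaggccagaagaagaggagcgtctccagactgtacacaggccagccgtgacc
Scnn1b, chr7:121864788-121865087, plus strand: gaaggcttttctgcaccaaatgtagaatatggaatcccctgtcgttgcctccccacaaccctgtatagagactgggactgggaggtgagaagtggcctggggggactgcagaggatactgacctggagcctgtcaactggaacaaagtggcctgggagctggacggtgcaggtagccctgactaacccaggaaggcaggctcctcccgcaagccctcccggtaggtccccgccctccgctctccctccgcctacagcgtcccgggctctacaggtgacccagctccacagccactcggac

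Capitals in the Slc26a4 window mark TATAAA, whose first base is 31 bases before the start, and TGTTCT, the other strand of AGAACA, whose first base is 213 before it. AGAACA is 1 arm of the motif of the glucocorticoid receptor. These 2 motifs were searched on both strands, as were the receptor's full motif (AGAACA and TGTTCT with 3 bases between them), which holds the single arm within it, and the STAT6 motif (TTC and GAA with 4 bases between them). The RefSeq table held windows for 6 of the 9 genes. TATAAA stood in 2 of the 6 (Slc26a4 and Slc26a9) and in 13.6% of all 32851 windows of this length. AGAACA stood in Slc26a4 alone of the 6 and in 19.0% of all windows. The STAT6 motif stood in none of the 6 and in 6.95% of all. The full receptor motif stood in none of the 6 and in only 3 of all 32851 windows, so its absence says nothing particular of these genes. The Slc26a4 window holds 6 CpG pairs, that of Scnn1b 10, that of Scnn1g 18 and that of Cftr 31, where the median of all windows is 7. No letters are in capitals in the Scnn1g and Scnn1b windows because they hold none of the motifs.

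Total counts per library were 13003087 to 40240680. Levels are given as counts-per-million values (CPM) scaled by TMM factors, and differences as log2 fold changes from limma-voom with Benjamini-Hochberg adjusted p-values over all genes tested. A gene passed when its adjusted p-value was under 0.05. No label says that each library came from a mouse of its own, so p-values measure only the spread between libraries. In 5 libraries the total count was low or a principal component stood far from the rest of the group (1 each of PBS airway at 3 weeks, PBS.AIR airway, and HDM.AIR, HDM.AIR.DEX and PBS.CS parenchyma at 11 weeks). Calls that change without these 5 are given beside the result.

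The labelled tissues were checked against their markers. At both times, 7 of 7 club cell markers, 9 of 9 ciliated cell markers and 6 of 6 smooth muscle markers were higher in control airway than in control parenchyma, and 7 of 7 alveolar type II markers were lower. Airway libraries still held alveolar RNA. The summed level of the alveolar type II markers was 4867 to 21660 CPM in PBS airways at 3 weeks, against 18840 to 33450 CPM in PBS parenchyma. In bulk tissue, fewer cells of a type and less RNA per cell cannot be told apart.

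Levels of different genes were compared per kilobase of exon. In PBS.AIR airways at 11 weeks the order was Scnn1a (mean 63.01 CPM per kb), Scnn1g (34.7), Scnn1b (33.1), Slc12a2 (21.2), Ano1 (10.4), Slc26a9 (5.27), Cftr (3.15) and Slc26a4 (1.29). After 3 weeks of HDM, Slc26a4 stood first of the 8 in parenchyma at a mean of 65.1 CPM per kb, above Scnn1a at 48.3. Within a gene, the highest group median was 48.7 times the lowest for Slc26a4, 5.32 times for Cftr, 4.71 for Scnn1b, 4.44 for Slc26a9, 4.40 for Scnn1g, 3.04 for Scnn1a, 2.22 for Ano1 and 1.68 for Slc12a2. Most neighbours in the order of the 20 group means did not differ by more than the larger SD of the pair. That step was passed 3 times of 19 for Slc26a4, 2 of 19 for Cftr and for Scnn1g, 1 of 19 for Ano1 and for Scnn1b, and at no step for the other 3 genes.

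Slc26a4 was the member with the largest differences between exposures. At 3 weeks its level in PBS airways had a lowest value of 4.31, a median of 4.72 and a highest of 17.4 CPM, and in HDM airways 17.8, 113.1 and 283.6 CPM. Every HDM library lay above every PBS library, although the lowest HDM airway and the highest PBS airway were close. The log2 fold change was 4.07 (SE 0.39, adjusted p = 2e-12, n = 10 and 11). In parenchyma the values were 4.60, 7.95 and 12.2 CPM with PBS and 97.2, 204.2 and 359.4 CPM with HDM, a log2 fold change of 4.57 (SE 0.39, adjusted p = 5.2e-14, n = 10 and 12). The groups were far apart in this tissue. The HDM effect in airway less that in parenchyma was -0.50 on the log2 scale (95% interval -1.61 to 0.60, adjusted p = 0.56).

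**Figure D1:**
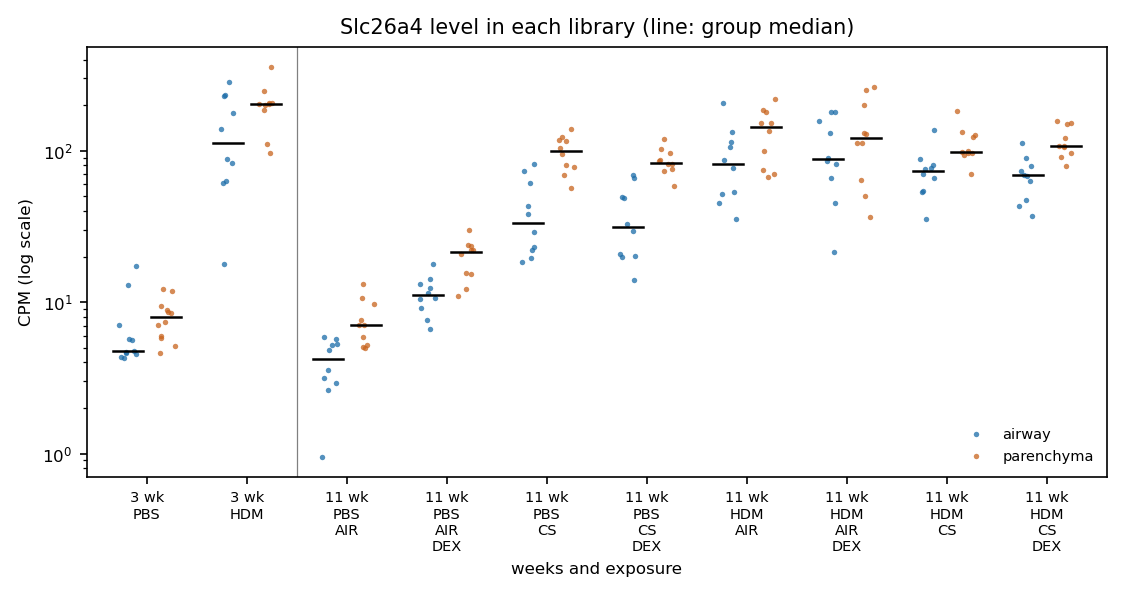
Level of Slc26a4 in every library, in CPM on a log axis, by weeks and exposure, with airway in blue and parenchyma in orange. Each point is 1 library and each line a group median, from 4.20 CPM in PBS.AIR airways to 204.2 CPM in HDM parenchyma at 3 weeks.

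At 11 weeks, Slc26a4 was at 0.944, 4.20 and 5.86 CPM (lowest, median, highest) in PBS.AIR airways and at 35.6, 81.6 and 206.2 CPM in HDM.AIR airways. Again no library overlapped, with a log2 fold change of 4.49 (SE 0.42, adjusted p = 5.2e-19, n = 10 and 10). In parenchyma PBS.AIR libraries gave 4.99, 7.05 and 13.1 CPM and HDM.AIR libraries 66.7, 143.2 and 219.9 CPM, a log2 fold change of 4.15 (SE 0.36, adjusted p = 7.4e-21). The HDM effect at 11 weeks less that at 3 weeks did not pass in either tissue (0.37 in airway, adjusted p = 0.67, and -0.55 in parenchyma, adjusted p = 0.42). Between control tissues the gene did not pass at 3 weeks (log2 -0.29, adjusted p = 0.61). In PBS.AIR mice at 11 weeks it was -0.98 in airway against parenchyma with an adjusted p of 0.074 in limma-voom, while edgeR's quasi-likelihood test gave 0.0066 and DESeq2 0.0028.

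Smoke alone also moved Slc26a4. PBS.CS airways were at 18.5, 33.4 and 81.3 CPM, all above the PBS.AIR airways (log2 fold change 3.30, SE 0.42, adjusted p = 1.9e-10). In parenchyma the PBS.CS values were 56.5, 99.8 and 139.7 CPM, again without overlap (log2 fold change 3.72, SE 0.36, adjusted p = 5e-17). On top of HDM, smoke gave no call. HDM.CS airways were at 35.1, 72.9 and 137.3 CPM and HDM.CS parenchyma at 70.6, 98.4 and 183.2 CPM, with log2 differences from HDM.AIR of -0.21 (95% interval -0.72 to 0.31) and -0.20 (-0.73 to 0.32). The HDM effect under smoke was smaller than the HDM effect under air, with a log2 difference of -3.51 in airway (adjusted p = 2.7e-08) and -3.92 in parenchyma (adjusted p = 5.2e-13). These comparisons and those of HDM.AIR, PBS.CS and PBS.AIR.DEX share the PBS.AIR libraries.

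DEX raised Slc26a4 in mice without HDM or smoke. PBS.AIR.DEX airways were at 6.60, 11.1 and 17.9 CPM, above every PBS.AIR airway library (log2 fold change 1.62, SE 0.45, adjusted p = 0.006). In parenchyma they were at 11.0, 21.4 and 29.9 CPM, with 8 of 10 libraries above every PBS.AIR library (log2 fold change 1.38, SE 0.38, adjusted p = 0.0034). With a stricter filter (a CPM of at least 10 in 9 libraries) the adjusted p in airway was 0.057. DEX gave no call for Slc26a4 in HDM.AIR, PBS.CS or HDM.CS mice in either tissue, where its log2 fold changes ran from -0.18 to 0.13. The difference of the HDM effect with DEX less without DEX passed in parenchyma (-1.53, adjusted p = 0.017). In airway it was -1.49 with an adjusted p of 0.076 in limma-voom, 0.025 in edgeR and 0.016 in DESeq2.

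As a whole, 4 of the 8 genes passed for HDM in airway at 3 weeks, where 74.6% of all genes tested did, and 5 of 8 in parenchyma, where 77.7% did. Both shares of members lay below the background, so the count itself says nothing particular of these genes. At 11 weeks 4 of 8 passed in airway (61.1% of all genes) and 5 of 8 in parenchyma (59.5%). For smoke alone 4 of 8 passed in each tissue, beside 13.7% of all genes in airway and 35.9% in parenchyma. For DEX in PBS.AIR mice 6 of 8 passed in each tissue, beside 14.9% in airway and 22.6% in parenchyma. In PBS.CS mice 6 of 8 passed with DEX in each tissue, beside 11.3% and 16.9%. For DEX in mice without HDM, the members' shares were above the background in both tissues, as was that for smoke alone in airway. For smoke alone in parenchyma 4 of 8 lay near the background of 35.9%, so that count says nothing particular of these genes.

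**Figure D2:**
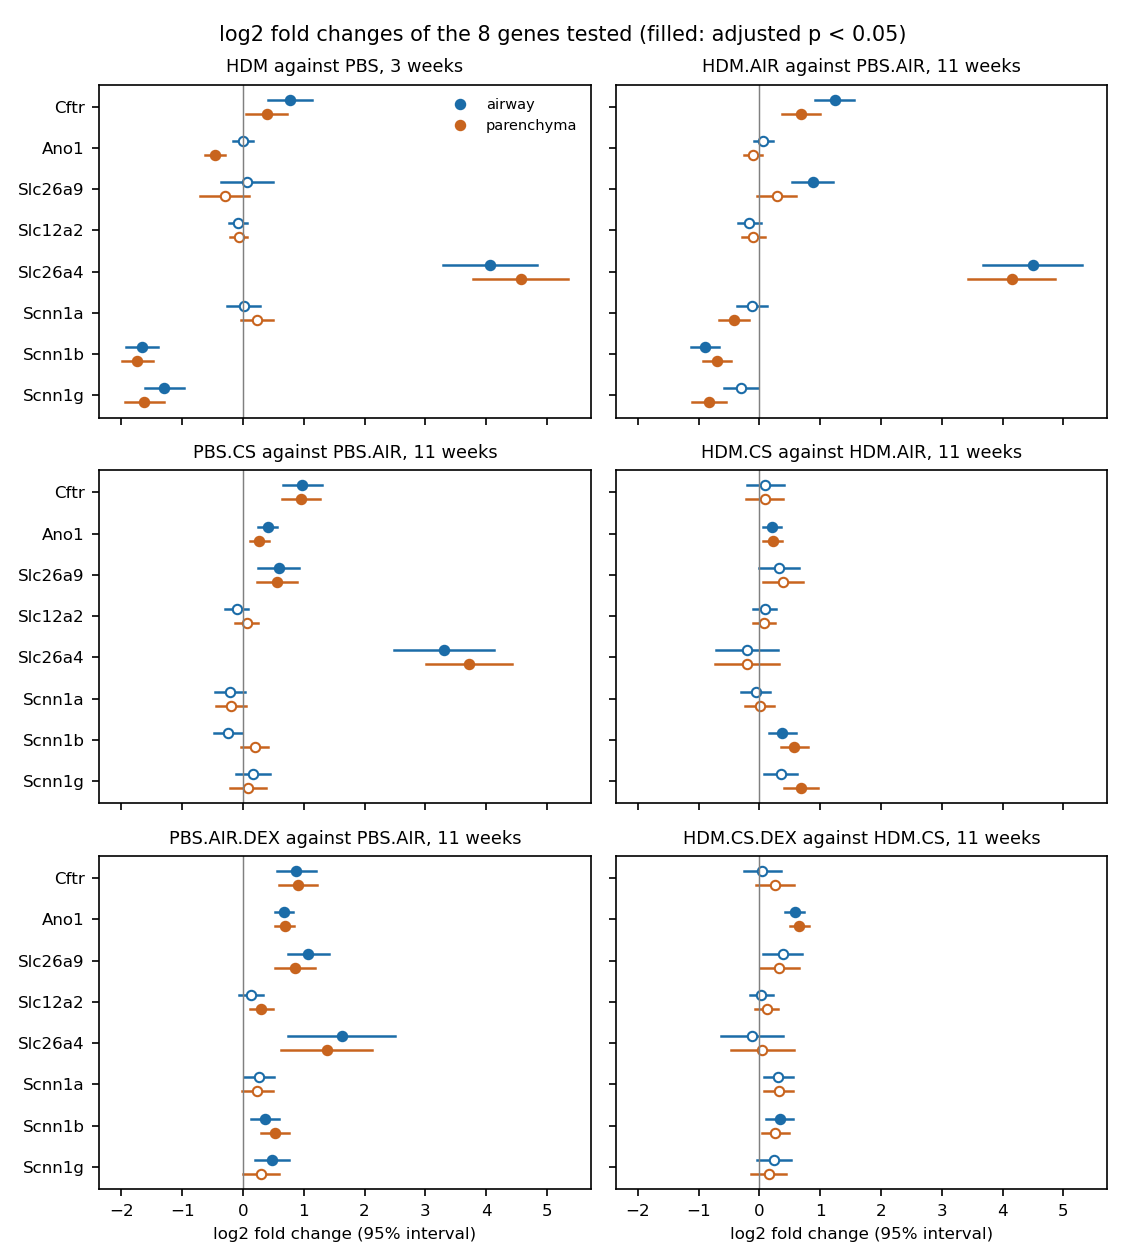
log2 fold changes (horizontal axis) of the 8 genes in 6 comparisons, airway in blue and parenchyma in orange, with 95% intervals as lines. Filled points passed at an adjusted p-value under 0.05. Slc26a4 lies between 3.30 and 4.57 for HDM and for smoke alone, while Scnn1b and Scnn1g lie below 0 for HDM.

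When smoke was added to HDM, 2 of 8 passed in airway (16.2% of all genes) and 3 of 8 in parenchyma (24.1%). When DEX was added to HDM.AIR, 3 of 8 passed in airway (28.6%) and 3 of 8 in parenchyma (28.5%). In HDM.CS mice DEX gave 2 of 8 in airway (9.3%) and 1 of 8 in parenchyma (7.86%). For differences between effects, 1 of 8 passed for HDM between tissues at 3 weeks (17.3%). Between 11 and 3 weeks the HDM effect differed for 3 of 8 in airway (28.4%) and 3 of 8 in parenchyma (42.4%). Between smoke and air it differed for 3 of 8 in airway (19.1%) and 3 of 8 in parenchyma (36%). Between DEX and no DEX it differed for 1 of 8 in airway (4.62%) and 3 of 8 in parenchyma (12.4%). Control airway differed from control parenchyma for 4 of 8 at 3 weeks (56.1%) and 4 of 8 at 11 weeks (56.4%). These shares of all genes are also the background for counts of cell markers and of other listed genes in the same comparisons.

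Among the ENaC subunits at 3 weeks, Scnn1b and Scnn1g fell with HDM in both tissues. Scnn1a, the subunit the channel needs for most of its current, did not pass in either by limma-voom. In parenchyma it rose and passed under several other settings, given below. Scnn1b at 3 weeks was at 40.5, 101.8 and 119.5 CPM in PBS airways and at 18.4, 26.7 and 44.2 CPM in HDM airways. Of the 10 HDM libraries, 9 lay below every PBS library (fell by 1.66 on the log2 scale, SE 0.13, adjusted p = 1.4e-14). In parenchyma PBS libraries gave 83.1, 107.1 and 118.2 CPM and HDM libraries 27.4, 32.7 and 40.5 CPM, without overlap (fell by 1.74, SE 0.13, adjusted p = 8.2e-16). Without the 5 libraries that stood apart the airway difference still passed.

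Scnn1g showed the same direction at 3 weeks. It was at 50.6, 127.9 and 179.6 CPM in PBS airways and at 23.5, 50.6 and 77.97 CPM in HDM airways, with 5 of 10 HDM libraries below every PBS library (fell by 1.30, SE 0.16, adjusted p = 1.8e-09). In parenchyma it was at 142.2, 196.5 and 225.9 CPM with PBS and at 49.8, 67.3 and 75.5 CPM with HDM, without overlap (fell by 1.62, SE 0.16, adjusted p = 2.2e-12). Scnn1a was at 84.5, 162.7 and 212.3 CPM in PBS airways and 92.2, 155.4 and 218.0 CPM in HDM airways, so the groups covered the same range (log2 0.01, 95% interval -0.26 to 0.28). In parenchyma Scnn1a was 0.24 on the log2 scale (95% interval -0.03 to 0.50, adjusted p = 0.094). That call changed between settings, for a cause that was not tested. The median log2 fold change of all genes there was -0.13, and DESeq2 size factors gave 0.33 for Scnn1a with an adjusted p of 0.022. Scnn1a also passed there with DESeq2's own test (0.34, adjusted p = 0.013), with no filter on low counts (0.018), with the stricter filter (0.027) and in 1 joint fit (0.016). Leaving out any of several single libraries, most of them HDM airway libraries, gave a pass too. It did not pass in edgeR or without the 5 libraries that stood apart.

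**Figure D3:**
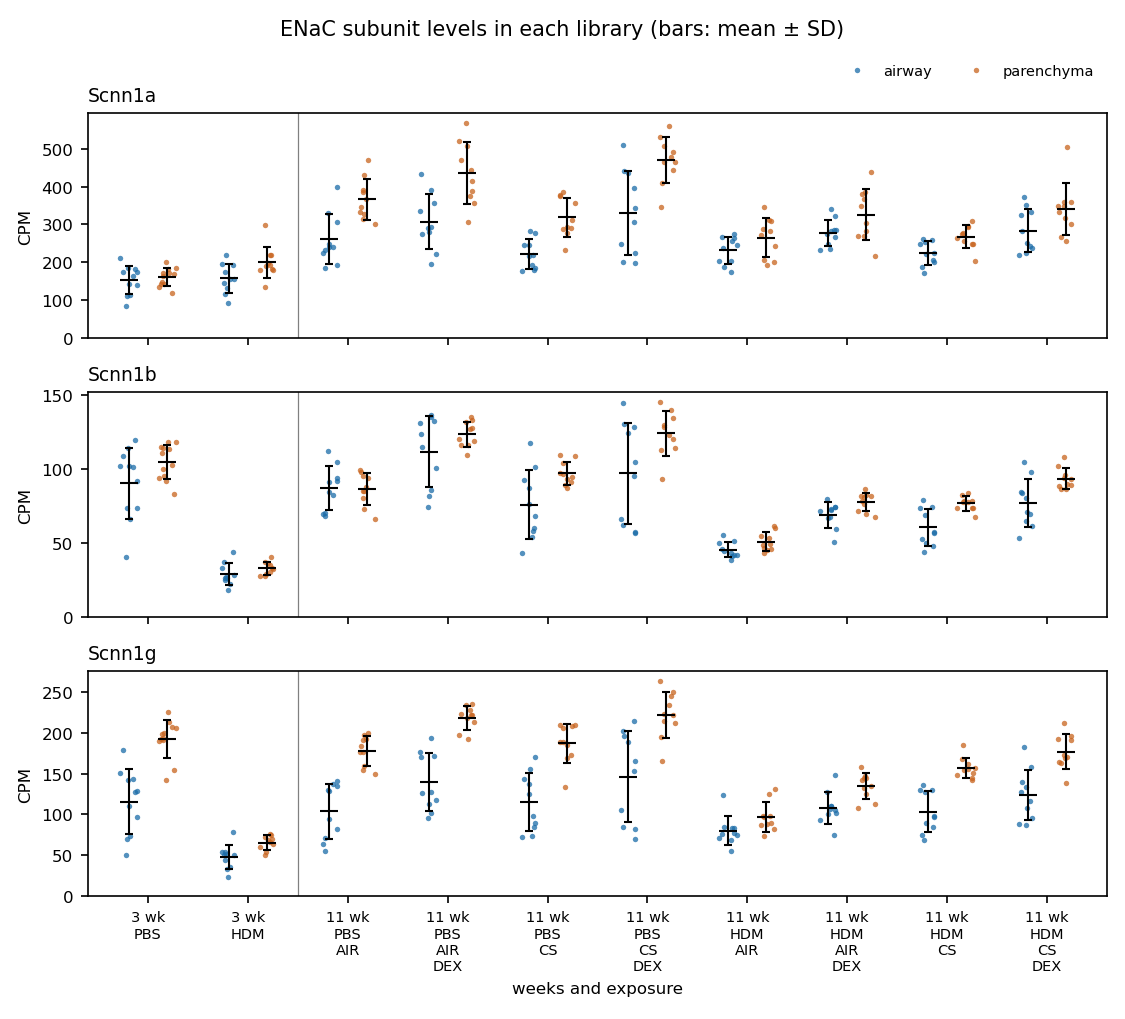
Level of Scnn1a, Scnn1b and Scnn1g in every library (CPM, linear axes from 0) by weeks and exposure, airway in blue and parenchyma in orange, with the mean and SD in black. Scnn1b and Scnn1g sit lowest in the 3 week HDM groups, at means of 28.9 and 32.9 CPM and of 47.3 and 65.4 CPM in airway and parenchyma.

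At 11 weeks the falls were smaller. Scnn1b was at 68.5, 88.2 and 112.4 CPM in PBS.AIR airways and at 38.5, 44.03 and 55.2 CPM in HDM.AIR airways, without overlap (fell by 0.90, SE 0.12, adjusted p = 9.4e-12). In parenchyma Scnn1b fell by 0.70 (SE 0.11, adjusted p = 3.8e-08), from a mean of 86.4 ± 11.0 to 50.9 ± 6.33 CPM (SD, n = 10 each), again without overlap. Scnn1g in parenchyma fell by 0.83 (SE 0.14, adjusted p = 1.7e-07), from 178.1 ± 18.1 to 96.9 ± 18.2 CPM (SD, n = 10 each). In airway Scnn1g was at 55.3, 111.3 and 140.9 CPM with PBS.AIR and 54.5, 76.6 and 123.6 CPM with HDM.AIR, and its difference of -0.30 had an adjusted p of 0.052. Without the 5 libraries that stood apart it was -0.44 with an adjusted p of 0.0044, and edgeR gave 0.022. Scnn1a was lower with HDM in parenchyma (fell by 0.42, SE 0.12, adjusted p = 0.0022), where HDM.AIR libraries were at 192.6, 277.6 and 345.7 CPM and PBS.AIR libraries at 301.1, 357.2 and 471.1 CPM. In airway its difference of -0.12 did not pass (95% interval -0.36 to 0.12).

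The change between times was itself tested. The HDM effect at 11 weeks less that at 3 weeks was 0.71 for Scnn1b (adjusted p = 0.00064) and 0.94 for Scnn1g (adjusted p = 0.00016) in airway, and 0.91 (adjusted p = 2.2e-06) and 0.67 (adjusted p = 0.0054) in parenchyma. For Scnn1a it was -0.78 in parenchyma (adjusted p = 0.00011) and -0.19 in airway (adjusted p = 0.44). The controls are labelled differently too, as PBS at 3 weeks and PBS.AIR at 11 weeks. Scnn1a was at 117.9, 166.3 and 199.6 CPM in PBS parenchyma at 3 weeks, under every PBS.AIR parenchyma library at 11 weeks. Week and any difference in how the controls were handled cannot be told apart. In parenchyma the same difference between times was positive and passed for 6 of 7 club cell markers and 8 of 9 ciliated cell markers, and in airway for none of either list (0 of 7 and 0 of 9 by limma-voom, with 2 ciliated markers passing the other way). The part of these markers in the parenchyma results was not tested.

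Smoke alone gave no call for an ENaC subunit in either tissue, with log2 fold changes between -0.24 and 0.19. In HDM-exposed mice, smoke went with higher Scnn1b and Scnn1g. Scnn1b in parenchyma was at 42.99, 48.9 and 61.5 CPM in HDM.AIR and at 67.6, 77.95 and 84.2 CPM in HDM.CS libraries, without overlap (log2 fold change 0.57, SE 0.11, adjusted p = 3.5e-05). Scnn1g there was at 72.9, 93.03 and 131.1 CPM against a lowest of 141.6 and a median of 155.6 CPM, again without overlap (0.69, SE 0.14, adjusted p = 8e-05). In airway Scnn1b rose by 0.38 (SE 0.11, adjusted p = 0.013), and Scnn1g was 0.35 (adjusted p = 0.077). The HDM effect was weaker under smoke than under air for Scnn1b in airway (difference 0.62, adjusted p = 0.0028) and for Scnn1g in parenchyma (0.61, adjusted p = 0.013). For Scnn1b in parenchyma the difference of 0.38 had an adjusted p of 0.053 in limma-voom, 0.049 in edgeR and 0.037 in DESeq2. Club cell markers moved with these results. With smoke on top of HDM, 4 of 7 rose in airway and 7 of 7 in parenchyma, where their summed level was 13400 to 29910 CPM in HDM.AIR and 18740 to 35840 CPM in HDM.CS libraries. The HDM effect on them was higher under smoke than under air for 5 of 7 in airway and 3 of 7 in parenchyma. Of all genes, 19.1% passed for this difference in airway and 36% in parenchyma. The summed alveolar type I markers in parenchyma were at 3128 to 5392 CPM (median 4566) in HDM.AIR and 5368 to 6390 CPM (median 5969) in HDM.CS libraries. In airway these sums were 2567 to 5186 CPM (median 3197) and 2819 to 5169 CPM (median 4119). The part of club cell and alveolar type I markers in the Scnn1b and Scnn1g results was not tested.

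DEX went with higher ENaC subunits where it passed. In HDM.AIR mice Scnn1b rose by 0.58 in airway (SE 0.11, adjusted p = 2.1e-05, from 45.5 ± 5.26 to 69.1 ± 8.58 CPM) and by 0.59 in parenchyma (SE 0.11, adjusted p = 1.5e-05, from 50.9 ± 6.33 to 77.8 ± 6.20 CPM), each with n = 10 per group and SD. These HDM.AIR.DEX levels lay below the PBS.AIR means of 87.1 and 86.4 CPM, a comparison for which no test was made. Scnn1g rose by 0.42 in airway (adjusted p = 0.014) and by 0.47 in parenchyma (adjusted p = 0.0071). In PBS.CS mice Scnn1a rose by 0.53 in airway (SE 0.12, adjusted p = 0.0011) and by 0.55 in parenchyma (SE 0.13, adjusted p = 0.00076), and Scnn1b by 0.35 and 0.33 (adjusted p = 0.032 and 0.034). The airway call of Scnn1b was lost with no filter on low counts (0.057) and with all libraries in one fit (0.056). In HDM.CS mice Scnn1b passed in airway, where it rose by 0.33. This call was lost in edgeR (adjusted p = 0.05) and with no filter on low counts (0.088). In PBS.AIR mice Scnn1b rose in both tissues (0.36 and 0.53, adjusted p = 0.021 and 0.00019) and Scnn1g in airway (0.48, adjusted p = 0.012). Without the 5 libraries that stood apart, the airway calls of Scnn1b (adjusted p = 0.051) and Scnn1g (0.053) in PBS.AIR mice were lost, as was that of Scnn1b with DEX in PBS.CS parenchyma (0.053).

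Among the chloride channels, Cftr was higher with HDM, with smoke alone and, in mice without HDM, with DEX. At 3 weeks it was at 8.37, 23.9 and 35.5 CPM in PBS airways and 16.7, 40.8 and 62.8 CPM in HDM airways, with 7 of 10 HDM libraries above every PBS library (log2 fold change 0.77, SE 0.18, adjusted p = 0.00018). In parenchyma the change was 0.39 (SE 0.17, adjusted p = 0.036), from 38.7 ± 6.42 (SD, n = 12) to 52.8 ± 7.12 CPM (SD, n = 10). Leaving out 1 of several single libraries lost this call, with adjusted p-values up to 0.065. At 11 weeks Cftr was at 13.8, 25.1 and 36.8 CPM in PBS.AIR airways and at 40.95, 52.4 and 69.95 CPM in HDM.AIR airways, without overlap (1.24, SE 0.16, adjusted p = 2.6e-11). In parenchyma it was at 37.1, 43.97 and 53.2 CPM against 53.99, 67.5 and 84.6 CPM, also without overlap (0.69, SE 0.16, adjusted p = 6.6e-05).

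Smoke alone raised Cftr by 0.97 in airway (SE 0.16, adjusted p = 1.5e-06) and by 0.96 in parenchyma (SE 0.16, adjusted p = 2.2e-07). PBS.CS parenchyma was at 55.9, 89.2 and 114.6 CPM, above every PBS.AIR library. Adding smoke to HDM gave no call (0.10 and 0.09), and the HDM effect under smoke less that under air was -0.88 in airway (adjusted p = 0.0024) and -0.87 in parenchyma (adjusted p = 0.00077). DEX raised Cftr in PBS.AIR mice by 0.88 in airway (adjusted p = 2.7e-05) and 0.91 in parenchyma (adjusted p = 2.3e-06), and in PBS.CS mice by 0.50 (adjusted p = 0.022) and 0.57 (adjusted p = 0.0056). The highest group of all 20 was PBS.CS.DEX parenchyma, at 94.9 to 156.3 CPM. In HDM.AIR mice DEX gave 0.30 in airway and 0.29 in parenchyma, neither past the threshold. The HDM effect with DEX less that without passed in parenchyma (-0.62, adjusted p = 0.049), and not without the 5 libraries that stood apart (0.076). This call was also lost with no filter on low counts (0.056) and with all libraries in one fit (0.073).

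**Figure D4:**
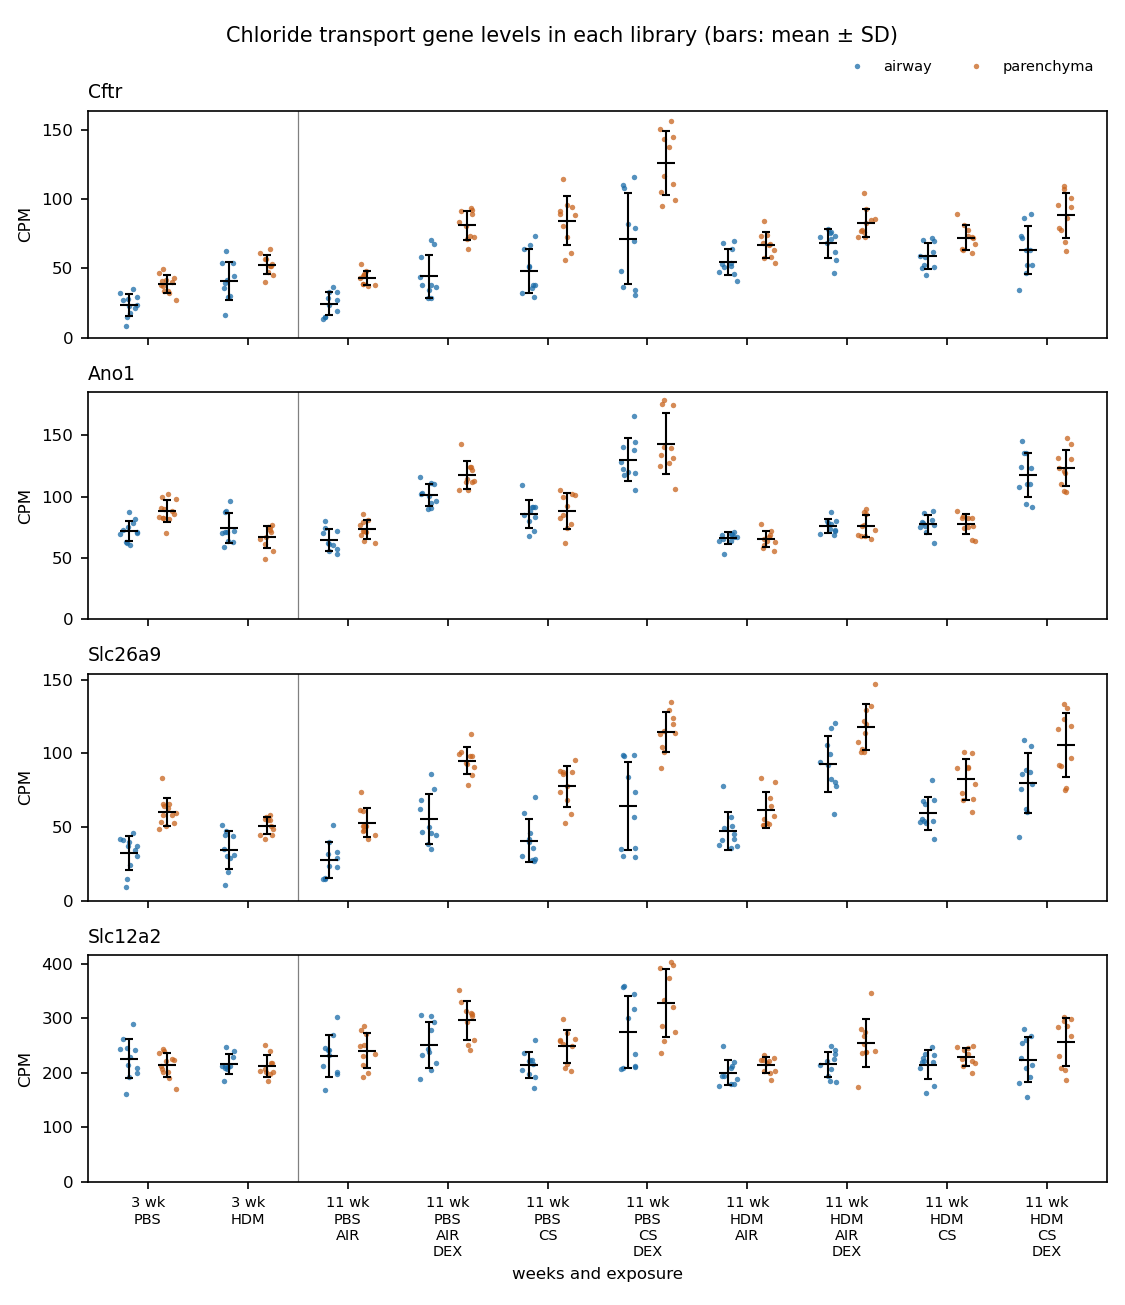
Level of Cftr, Ano1, Slc26a9 and Slc12a2 in every library (CPM, linear axes from 0) by weeks and exposure, airway in blue and parenchyma in orange, with the mean and SD in black. Ano1 stands highest in the DEX groups other than HDM.AIR.DEX, at means of 101.5 to 143.2 CPM.

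Ano1 differed from Cftr in that DEX was the exposure with its largest changes. In PBS.AIR airways it was at 53.3, 61.6 and 80.1 CPM and in PBS.AIR.DEX airways at a lowest of 89.5 and a median of 101.6 CPM, without overlap (0.67, SE 0.08, adjusted p = 2.4e-11). In parenchyma the change was 0.69 (SE 0.08, adjusted p = 2.3e-12), also without overlap. Ano1 rose with DEX in PBS.CS mice by 0.61 in airway and 0.68 in parenchyma (adjusted p = 8.9e-10 and 8e-12), and in HDM.CS mice by 0.58 and 0.65 (adjusted p = 8.3e-09 and 4.1e-11). In HDM.AIR mice it was 0.18 in each tissue, with adjusted p-values of 0.064 and 0.063. With all libraries in one fit both passed (0.039 and 0.034), and without the 5 libraries that stood apart the airway difference passed (0.039) while that in parenchyma had an adjusted p of 0.14. The HDM effect with DEX less that without was -0.49 in airway (adjusted p = 0.0015) and -0.50 in parenchyma (adjusted p = 0.00078). In airway this was the only one of the 8 genes to pass that test in limma-voom.

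HDM lowered Ano1 in parenchyma at 3 weeks, from 70.5, 86.99 and 102.1 CPM to 48.95, 68.97 and 76.8 CPM (fell by 0.46, SE 0.08, adjusted p = 1.6e-06). In airway the values were 60.1, 71.4 and 87.3 CPM with PBS and 58.99, 71.1 and 96.5 CPM with HDM. The difference between the tissues' HDM effects was 0.47 (SE 0.11, adjusted p = 0.0046). At 11 weeks HDM gave no call for Ano1 in either tissue (0.06 and -0.10). The effect at 11 weeks less that at 3 weeks in parenchyma was 0.24 (adjusted p = 0.07), and passed without the 5 libraries that stood apart (0.27, adjusted p = 0.033). Smoke raised it by 0.40 in airway (adjusted p = 3e-05) and 0.27 in parenchyma (adjusted p = 0.003), and on top of HDM by 0.21 (adjusted p = 0.048) and 0.22 (adjusted p = 0.027). The call of smoke on top of HDM in airway was lost in edgeR (0.055), in DESeq2 and with no filter on low counts (0.071), and that in parenchyma with no filter (0.078).

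Slc26a9 was at 14.4, 26.3 and 51.2 CPM in PBS.AIR airways and 35.4, 43.6 and 77.97 CPM in HDM.AIR airways (0.88, SE 0.17, adjusted p = 3.4e-06), with 2 of 10 HDM.AIR libraries above every PBS.AIR library. In parenchyma it was 0.28 and did not pass (95% interval -0.04 to 0.61). At 3 weeks HDM gave 0.06 in airway and -0.30 in parenchyma, and the effect at 11 weeks less that at 3 weeks passed in airway (0.76, adjusted p = 0.018). Smoke alone raised the gene by 0.59 in airway (adjusted p = 0.011) and 0.56 in parenchyma (adjusted p = 0.0042). DEX raised it in PBS.AIR, HDM.AIR and PBS.CS mice in both tissues, by 0.56 to 1.07. In HDM.AIR parenchyma it was at 51.4, 56.3 and 83.4 CPM without DEX and at 100.7, 116.8 and 147.2 CPM with it, without overlap (0.92, SE 0.17, adjusted p = 3.3e-06). In HDM.CS mice DEX gave 0.38 and 0.33 with adjusted p-values of 0.14 and 0.25.

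Slc12a2 (chr18:57878678-57946821, plus strand) varied least of the 8 in the span of its group medians. HDM gave differences of -0.17 to -0.07 and smoke of -0.10 to 0.08, none past the threshold in limma-voom, although DESeq2 gave an adjusted p of 0.039 for HDM in airway at 11 weeks. DEX raised it in PBS.AIR parenchyma (0.30, SE 0.10, adjusted p = 0.014), in PBS.CS airway (0.35, SE 0.10, adjusted p = 0.0085) and in PBS.CS parenchyma (0.37, SE 0.10, adjusted p = 0.0031). In the last of these the libraries were at 203.7, 255.4 and 297.7 CPM without DEX and 235.4, 326.3 and 403.3 CPM with it, so the groups overlapped.

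Atp12a, the proton pump, was close to absent from the counts. It had 79 counts over all libraries, in 57 of them, with at most 3 in any library, and was at 0 in the rest. Its highest level was 0.121 CPM. By total count, 3 counts amount to 0.0746 CPM in the deepest library and 0.231 CPM in the shallowest. Whether exposures change it was not detectable at this depth. Counts and floors here cover counting error only.

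Cftr, Slc26a9 and Scnn1g differed between the control tissues and, within control airways, had levels that followed alveolar marker RNA. Cftr, Slc26a9 and Scnn1g were lower in airway than in parenchyma at both times. At 11 weeks the differences were -0.85 for Cftr (adjusted p = 3.1e-06), -0.99 for Slc26a9 (adjusted p = 2.1e-07) and -0.82 for Scnn1g (adjusted p = 3.5e-07), and at 3 weeks -0.78, -1.002 and -0.80. Scnn1a was also lower in airway at 11 weeks (-0.49, adjusted p = 0.00043), and Ano1 at 3 weeks (-0.28, adjusted p = 0.0027). Within the 11 PBS airway libraries at 3 weeks, Slc26a9 followed the summed alveolar type II markers with a Pearson r of 0.956 and a Spearman rho of 0.791 (permutation p = 4e-05 and 0.0057, adjusted over 16 relations 0.0002 and 0.013). Without the 2 libraries farthest from the median of that sum, r was 0.865. Each Pearson r with this sum was taken between log2 levels.

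**Figure D5:**
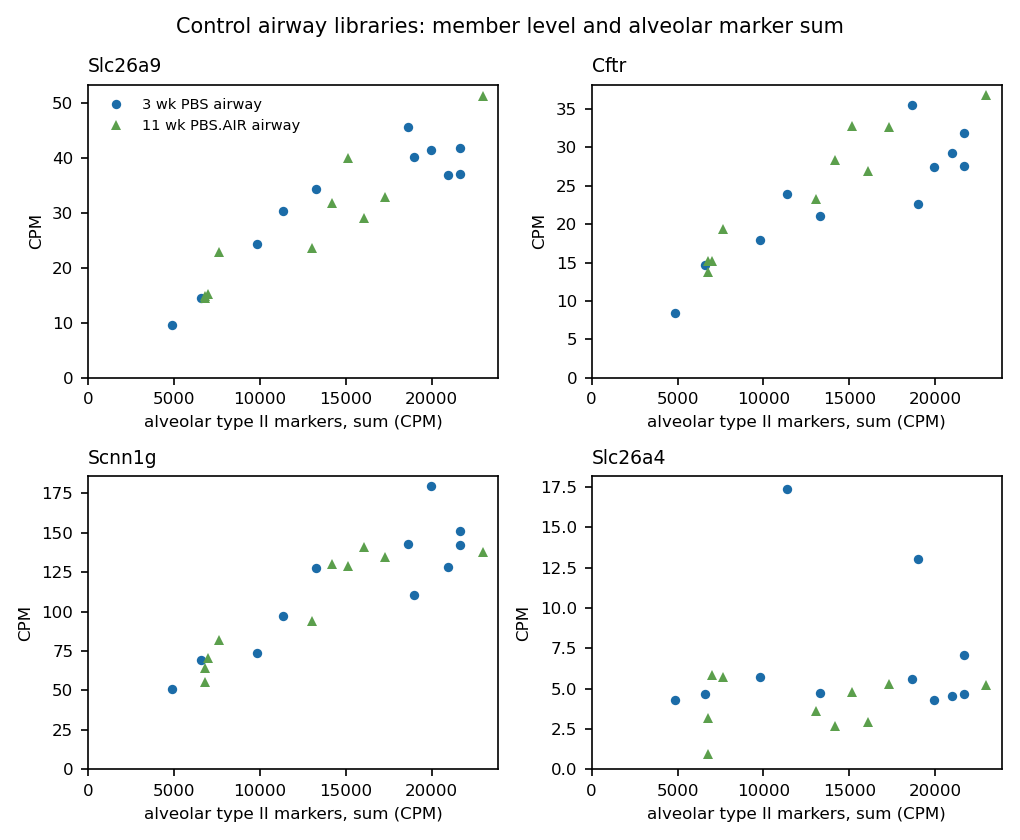
Levels of Slc26a9, Cftr, Scnn1g and Slc26a4 (CPM, vertical axes) against the summed level of 7 alveolar type II markers (CPM, horizontal axes) in the control airway libraries, 11 at 3 weeks (circles) and 10 at 11 weeks (triangles). The first 3 genes rise with the marker sum, with r between 0.928 and 0.966, and Slc26a4 does not (r of 0.12 and 0.306). The axes are linear, while r was computed on log2 levels.

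In the 10 PBS.AIR airway libraries r for Slc26a9 was 0.936 and rho 0.927 (permutation p = 5e-05 and 0.00034, adjusted 0.0002 and 0.0018), and r was 0.894 without the 2 farthest. Cftr gave r of 0.928 and 0.966 and rho of 0.818 and 0.927 in the 2 groups (adjusted permutation p = 0.00032 and 0.0002 for r, 0.0089 and 0.0018 for rho), with r of 0.772 and 0.95 without the 2 farthest. Scnn1g gave r of 0.935 and 0.939 and rho of 0.855 and 0.939 (adjusted permutation p = 0.00032 and 0.0002 for r, 0.0045 and 0.0018 for rho), with r of 0.82 and 0.919. Slc26a4 gave r of 0.12 and 0.306 and rho of 0.0636 and 0.212 (adjusted permutation p = 0.75 and 0.46 for r, 0.86 and 0.64 for rho). Of the other genes, Scnn1a gave r of 0.905 and 0.632 and rho of 0.9 and 0.673. Its adjusted permutation p was 0.00071 and 0.072 for r, and 0.0018 and 0.069 for rho. Scnn1b gave r of 0.864 and 0.652 and rho of 0.655 and 0.612. Its adjusted permutation p was 0.0027 and 0.072 for r, and 0.069 and 0.11 for rho. Ano1 gave r of 0.649 and -0.455 and Slc12a2 0.405 and 0.594, none with an adjusted permutation p under 0.05. The sum comes from the same libraries as the member, so depth and scaling are shared.

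The same marker sum moved with exposures, and so stands beside the airway and DEX results above. With DEX in PBS.AIR mice, 6 of 7 alveolar type II markers rose in each tissue, and the sum went from 6788 to 22970 CPM (median 13620) to 11550 to 28640 CPM (median 15980) in airway, and from 20280 to 31630 CPM (median 23670) to 32080 to 39320 CPM (median 36300) in parenchyma. With DEX in HDM.AIR mice 6 of 7 rose in airway and 5 of 7 in parenchyma, with median sums of 15420 and 25250 CPM without and with DEX in airway and of 21070 and 29490 CPM in parenchyma. In PBS.CS mice 5 of 7 rose in airway and 6 of 7 in parenchyma, and in HDM.CS mice 1 of 7 and 2 of 7. With HDM in airway, 1 of 7 rose and 2 of 7 fell at 3 weeks, and 5 of 7 rose at 11 weeks. With smoke alone 3 of 7 rose in each tissue. None of the 7 markers was at 0 in any library. The part of this in the results for Cftr, Ano1, Slc26a9, Slc12a2 and the ENaC subunits was not tested.

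Markers of other cells also moved with HDM. At 3 weeks in airway 7 of 7 leukocyte markers rose, with sums of 244.0 to 425.0 CPM in PBS and 516.6 to 1695 CPM in HDM libraries, while 6 of 7 club cell markers and 8 of 9 ciliated cell markers fell. Sums of the club cell list were 40270 to 103300 CPM in PBS airways and 16850 to 38990 CPM in HDM airways. In HDM parenchyma 6 of 7 club cell markers fell as well, from sums of 25550 to 58930 CPM to sums of 12450 to 21090 CPM. Goblet cell markers rose, 6 of 7 in each tissue, with sums in airway of 194.2 to 815.7 CPM with PBS and 401.6 to 1854 CPM with HDM. Summed alveolar type I markers at 3 weeks were at 6295 to 8799 CPM in PBS parenchyma and 3127 to 3993 CPM in HDM parenchyma, without overlap. In airway they were at 1500 to 5810 CPM with PBS and 740.8 to 3931 CPM with HDM. The alveolar type II sum in parenchyma had medians of 27660 CPM with PBS and 19270 CPM with HDM, with overlapping ranges. The part of these shifts in the falls of Scnn1b and Scnn1g and the rises of Slc26a4 and Cftr was not tested.

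Ionocytes, rare airway cells known for high Cftr, were read from 9 markers, of which Foxi1, their defining transcription factor, was near 0. Foxi1 reached at most 0.342 CPM in any HDM airway library at 3 weeks and was at 0 in every PBS parenchyma library of that time. The summed list was nevertheless higher with HDM, at 87.7 to 182.4 CPM (median 135.7) in PBS airways and 89.2 to 453.5 CPM (median 343.9) in HDM airways, with 4 of the 7 markers tested higher and 1 lower. The 3 that rose most in airway were Atp6v0d2 (2.05), Stap1 (1.58) and P2ry14 (1.54), genes that macrophages or lymphocytes also express. Their part in the Cftr result was not tested.

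The other genes of ion transport came from lists written by hand, and the text names some of those with the largest changes that passed. Of 16 tested genes of chloride and bicarbonate transport, 8 rose and 4 fell with HDM in airway at 3 weeks (median log2 0.19, all genes -0.07). In parenchyma 8 rose and 6 fell (0.28, all genes -0.13). Of all genes tested, 74.6% passed there in airway and 77.7% in parenchyma, so the airway count lies near the background. Clca1, a secreted goblet cell protein that modulates calcium-activated chloride currents, went from 7.99, 17.5 and 440.6 CPM to 269.2, 3740 and 7229 CPM in airway (6.46, adjusted p = 1.8e-11). Of the 10 HDM libraries, 9 lay above every PBS library. Slc26a3, a chloride and bicarbonate exchanger like Slc26a4, moved the other way (-2.25 in airway, adjusted p = 3.6e-05, and -3.61 in parenchyma, adjusted p = 1.4e-08). Car12, a carbonic anhydrase, rose by 1.89 and 1.31 (adjusted p = 7.3e-07 and 0.0053).

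Clca1 and Slc26a4 parted under smoke and under DEX. With smoke alone in airway Clca1 was -3.54 (adjusted p = 0.00098) where Slc26a4 was 3.30. With DEX in HDM.AIR mice Clca1 was -3.43 in airway (adjusted p = 2.2e-07) and -3.49 in parenchyma (adjusted p = 1.2e-05), where Slc26a4 was 0.13 and -0.15. In HDM.AIR airways Clca1 was at 20.5, 405.6 and 1594 CPM and with DEX at 9.93, 25.3 and 61.3 CPM. No test was made between the genes.

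Of 20 regulators of sodium absorption, 7 rose and 11 fell with HDM at 3 weeks in each tissue (median log2 -0.17 in airway and -0.29 in parenchyma). The share of all genes passing there was 74.6% in airway and 77.7% in parenchyma. Bpifa1, a secreted airway protein known to inhibit ENaC, fell in both tissues (-2.84 in airway, adjusted p = 0.00024, and -2.61 in parenchyma, adjusted p = 1.2e-05). Nr3c2, the mineralocorticoid receptor through which aldosterone raises ENaC, fell by 1.64 in airway (adjusted p = 3.3e-20). Hsd11b2, the enzyme that inactivates glucocorticoids and so shields that receptor, rose by 2.05 and 2.72 (adjusted p = 4e-08 and 1.1e-10). Furin, a protease that can cut ENaC subunits, rose by 1.76 in parenchyma (adjusted p = 5.9e-19). At 11 weeks the counts were 7 up and 9 down in each tissue, where 61.1% of all genes passed in airway and 59.5% in parenchyma. Bpifa1 was at -3.36 and -2.69 and Hsd11b2 at 1.59 and 1.52 (airway and parenchyma, all 4 passing). Hsd11b2 also rose with smoke alone (1.53 and 1.85, adjusted p = 0.0022 and 2.6e-06).

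With smoke alone 3 of the 20 rose and 3 fell in airway (13.7% of all genes passed), and 9 rose and 3 fell in parenchyma (35.9%). With DEX in PBS.AIR mice 4 rose and 3 fell in airway (14.9% of all genes passed) and 6 rose and 4 fell in parenchyma (22.6%). In HDM.AIR mice with DEX, 6 rose and 0 fell in airway and 9 rose and 0 fell in parenchyma by limma-voom. Of all genes, 28.6% passed there in airway and 28.5% in parenchyma, so the airway count lies near the background. In these mice Prss8, a protease that activates ENaC, rose with DEX by 0.40 and 0.47 (adjusted p = 0.00062 and 6.5e-05). Sgk1, a kinase that keeps ENaC at the surface, rose by 0.42 in airway (adjusted p = 0.0029). Tsc22d3, a gene that glucocorticoids are known to induce, was lower with DEX in PBS.AIR mice (-1.07 in airway, adjusted p = 0.00052, and -1.13 in parenchyma, adjusted p = 0.00017). Its levels in airway were 102.5, 179.7 and 391.5 CPM without DEX and 52.6, 79.3 and 261.7 CPM with it. This gene therefore does not check the DEX labels, and the differences given for DEX are between libraries as labelled.

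Potassium channels set the driving force for chloride exit, and 4 of 10 tested rose and 2 fell with HDM in airway at 3 weeks (3 and 2 in parenchyma). The background for these counts and those of proton pumping is 74.6% of all genes in airway and 77.7% in parenchyma. Kcnn4, a calcium-activated channel that leukocytes also carry, rose by 1.56 and 2.73 (adjusted p = 9.6e-11 and 5.6e-16). Kcne2, a channel subunit, fell (-1.56 and -1.76, adjusted p = 3e-06 and 4.1e-09), and with DEX in HDM.AIR mice it rose by 1.17 and 1.07 (adjusted p = 0.0022 and 0.0012). Of 8 genes of proton pumping, 4 rose and 3 fell in airway and 4 rose and 4 fell in parenchyma. Atp6v1b1, a subunit of the vacuolar proton pump found in acid-secreting cells, went from 11.9, 17.7 and 31.6 CPM to 1.75, 4.59 and 7.91 CPM in airway at 3 weeks, without overlap (-2.33, adjusted p = 8.7e-13), and was also lower with smoke alone (-1.35, adjusted p = 4.1e-08).

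Of the 4 aquaporins, 2 fell and 0 rose with HDM in airway at 3 weeks by limma-voom, and 2 fell and 1 rose in parenchyma. The background for these counts and those of receptors is 74.6% of all genes in airway and 77.7% in parenchyma. Aqp5, the water channel of alveolar type I and gland cells, fell in both (-1.14 in airway, adjusted p = 3.2e-11, and -1.49 in parenchyma, adjusted p = 7.4e-15). Among 7 tested receptors that act on ion transport, 4 rose and 2 fell in airway and 5 rose and 2 fell in parenchyma. P2ry2, the nucleotide receptor that activates calcium-dependent chloride secretion, rose by 1.55 and 2.07 (adjusted p = 8.4e-12 and 3.1e-15).

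All 8 listed cytokines known to act on these genes rose with HDM at 3 weeks in each tissue, and 7 of 8 did at 11 weeks. The share of all genes passing was 74.6% in airway and 77.7% in parenchyma at 3 weeks, and 61.1% and 59.5% at 11 weeks. Il13 was at 0, 0 and 0.0611 CPM in PBS airways and at 0.273, 0.772 and 2.56 CPM in HDM airways at 3 weeks, and in HDM.AIR airways at 11 weeks at 0.0355, 0.371 and 0.826 CPM. With smoke alone 2 of 8 rose and 1 fell in airway (13.7% of all genes passed), and 3 rose and 1 fell in parenchyma (35.9%). With DEX in HDM.AIR mice 5 of 8 fell in airway (28.6% of all genes passed) and 7 of 8 in parenchyma (28.5%). Slc26a4 did not pass in that comparison in either tissue.

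Genes with the pattern most like each member were ranked by the Pearson r of mean log2 CPM over the 20 groups after subtracting each tissue's mean, as a description over groups that share controls. For Slc26a4 these were Lcn2, an iron-binding antimicrobial protein (0.996), Chil1, a chitinase-like protein (0.989), and 4930430E12Rik (0.989). For Slc26a9 they were Slc34a2, the phosphate transporter of alveolar type II cells (0.977), Mlc1 (0.971) and Ang (0.968). Scnn1b was most like Cyp2b10, a cytochrome P450 (0.977), and Cat, catalase (0.976). For Scnn1g they were Wwp1 (0.983), Phactr1 (0.983) and Ldlrad3 (0.98). Scnn1a was most like Bcr (0.981), Bcorl1 (0.978) and Shroom3 (0.977), and Cftr most like Veph1 (0.959), Atp11a (0.955) and Nexmif (0.952). For Ano1 they were Poc1a (0.949), Ndnf (0.937) and AU018091 (0.936), and for Slc12a2 Krt19 (0.926), Smug1 (0.912) and Ism2 (0.909).

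Among the members themselves the closest pair was the pair of neighbours Scnn1b and Scnn1g, at 0.966. Next came Cftr and Slc26a9 at 0.863 and Ano1 and Slc12a2 at 0.777. Scnn1a, the third ENaC subunit, was at 0.548 with Scnn1b and 0.587 with Scnn1g. Slc26a4 was at -0.58 with Scnn1b and -0.47 with Scnn1g, and at 0.695 with Cftr. With 20 groups and shared controls these are descriptions only.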

How the data were processed

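The authors aligned single reads to mm10 with STAR 2.5.1b and quantified genes with RSEM 1.2.31 and kallisto 0.44.0 (annotation m21). They deposited 1 table of expected counts per gene, not normalized, and which quantifier made it is not given in the sources used here. Of the values above 0, 20.3% had a fractional part and were rounded. The 43346 identifiers were matched without their versions to GENCODE M21, and 42462 had a symbol. No 2 libraries of a group agreed within sampling noise.

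Tests were run with limma 3.58.1 (voom weights, 1 mean per group, Benjamini-Hochberg adjustment) after TMM scaling by edgeR 4.0.16, under R 4.3.3. Genes needed the CPM equivalent of 10 counts in 9 libraries. The 43 libraries at 3 weeks were fitted together (17381 genes), as were the 160 at 11 weeks (18250), and differences between weeks came from a fit of every library (18528). Permutation tests were 2-sided with 100000 resamples. Each result was recomputed with edgeR's own test, with DESeq2 1.42.0, with its size factors and with other filters. Comparisons within 3 or within 11 weeks were also recomputed in 1 joint fit. Single libraries were left out only for the comparisons at 3 weeks. Leaving out the 5 libraries that stood apart was chosen after seeing the data. Scripts were tested on simulated data.

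The members and gene lists were chosen with earlier results of these data known. The text names every member, at most 3 genes of a list per comparison (the largest changes among those that passed) and the 3 genes most like each member. Some genes that this rule would name are not reported here.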

Additional observations from a re-analysis of the deposited data

Results flagged for a closer look

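For each tested gene in each group of 10 libraries, the gap between an extreme library and its nearest neighbour was set against the group's range by Dixon's test on the log2 scale, and 5 cases stood out. Chance flags about 1 in 20 groups, which over the groups tested is more than these 5. The lowest HDM.AIR airway library for Ano1 was at 53.51 CPM, next to 63.6 CPM. The lowest PBS.AIR airway library for Slc26a4 was at 0.944 CPM, next to 2.65 CPM. For Scnn1a the lowest HDM.CS parenchyma library was at 203.6 CPM, next to 247.5 CPM, and the highest HDM.CS.DEX parenchyma library at 505.6 CPM, next to 360.1 CPM. The lowest PBS.CS parenchyma library for Scnn1g was at 133.7 CPM, next to 169.5 CPM, and it is 1 of the 5 libraries that stood apart.

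Effects of HDM differed between settings for 17 pairs of gene and contrast, each by a test of the difference itself on the log2 scale. Between airway and parenchyma at 3 weeks this was Ano1 (0.469). Between smoke and air it was Cftr (-0.878), Slc26a4 (-3.51) and Scnn1b (0.621) in airway, and Cftr (-0.868), Slc26a4 (-3.92) and Scnn1g (0.607) in parenchyma. Between DEX and no DEX it was Ano1 in airway (-0.491), and Cftr (-0.618), Ano1 (-0.504) and Slc26a4 (-1.53) in parenchyma. The call of Cftr there was lost under other settings given above. Between 11 and 3 weeks it was Slc26a9 (0.757), Scnn1b (0.707) and Scnn1g (0.938) in airway, and Scnn1a (-0.784), Scnn1b (0.914) and Scnn1g (0.668) in parenchyma.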

How the results depend on the processing

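No result changed direction while called. The number of the 8 genes that passed stayed within 1.5 times its value for every comparison and alternative except these. For smoke on top of HDM in airway it was 1 with edgeR, with DESeq2 and with no filter on low counts, against 2. For DEX in HDM.AIR parenchyma it was 5 when all libraries were in one fit, against 3. For DEX in HDM.CS airway it was 1 with edgeR and with no filter, against 2. For the HDM effect by DEX in airway it was 2 with edgeR and with DESeq2, against 1. Leaving out 1 of the 43 libraries at 3 weeks gave 4 to 5 genes between control tissues, 4 to 4 for HDM in airway, 4 to 6 for HDM in parenchyma and 1 to 1 for the difference between tissues. The cause of these changes was not tested. Leaving out libraries with thyroid RNA was not run because no library met its rule. No paired analysis was run because the labels do not tie the airway and parenchyma of a mouse together and replicate numbers were given in accession order. Atp12a, with at most 3 counts in any library, was not tested.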
